A study of Mus musculus with 6 samples.

Results

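The MHC class I antigen presentation machinery was examined in immortalized mouse pancreatic fibroblasts through 10 genes, chosen by symbol from the 14831 genes of the deposited count table: the heavy chain genes H2-K1, H2-D1 and H2-M3, the light chain gene B2m, the peptide transport and loading genes Tap1, Tap2 and Tapbp, and the immunoproteasome genes Psmb8, Psmb9 and Psmb10. All 10 were in the table and passed the filter on low counts. Poly-A RNA was sequenced from 6 libraries, 3 labelled WT and 3 labelled KO, the latter with the genotype Gli2-/-;Gli3-/- and all of the strain label Mixed. The study derived its fibroblast lines by outgrowth from the pancreas of adult mice with floxed Gli alleles. Immortalized cells were given viruses for fluorescent proteins alone (WT) or adenoviruses for GFP and for Cre under the CMV promoter (KO), and infected cells were sorted. The methods state that lines were screened for recombination by qPCR and western blot. Each library came from its own well grown to confluence. The design text calls these biological replicates, while the growth protocol names only wells. The p-values thus measure the spread between these libraries, which may be that of wells and library preparation alone. Label, virus treatment and cell line go together here, so their effects cannot be told apart. The labels set fibroblasts with a Gli2 and Gli3 knockout genotype against WT fibroblasts. The counts of both genes, given below, were higher in the KO-labelled libraries, and counts over whole genes cannot show whether the floxed exons were lost.

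Class I molecules carry peptides from inside the cell to its surface, where CD8 T cells read them and NK cells sense their absence. The proteasome cuts proteins into peptides, and the immunoproteasome subunits, which interferon induces, can replace the constitutive catalytic subunits in it. TAP1 and TAP2 form the pump that moves peptides into the endoplasmic reticulum, tapasin (Tapbp) holds empty class I molecules at the pump, and a heavy chain leaves for the surface once it has bound a peptide and beta 2-microglobulin (B2m). Most of these genes lie in the major histocompatibility complex, which in the mouse is on chromosome 17, as did 8 of the 10 here.

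Gli2 and Gli3, the genes named in the genotype, checked the labels. Gli2 had 809, 944 and 868 counts in the WT-labelled libraries and 1932, 2316 and 1926 in the KO-labelled ones. Gli3 had 392, 416 and 398 counts in the former and 1434, 1637 and 1404 in the latter. Both were thus higher in the KO-labelled libraries, and counts summed over all exons of a gene cannot isolate the floxed exons. For this reason groups are named by label only (WT-labelled, KO-labelled), and a direction below is one between these labels. Totals were 31728420 to 41035931 counts per library. Of 10 fibroblast markers, 8 were in the table, and Pdpn and Fap were not. The summed level of the 8 was 44822 to 47236 CPM (counts scaled to the library size) in the WT-labelled libraries and 36783 to 38533 in the KO-labelled ones. Of the 7 tested, 4 were lower by 1.5-fold or more with an adjusted p under 0.05 from edgeR, against 6.1% of all genes tested. They were Dcn, Col3a1, Pdgfra and Pdgfrb, with log2 fold changes of -1.55, -0.94, -0.90 and -0.66. None was higher by this rule, and Col1a1 had 0.01. Of 10 macrophage and leukocyte markers, 5 were in the table, without Ptprc, Adgre1 and Itgam, with a summed level of 56.7 to 62.1 CPM in the WT-labelled libraries and 53.3 to 55.4 in the KO-labelled ones. None of the 19 dendritic, B, T, NK and endothelial cell markers was in the table. The epithelial and acinar markers, 4 of 10 in the table and without Krt18, Krt19 and Epcam, summed to 11.7 to 14.1 CPM in the WT-labelled libraries and 37.6 to 39.5 in the KO-labelled ones. The 3 tested, Krt7, Cdh1 and Cela1, were higher by the same rule, by 5.28-fold, 2.12-fold and 1.83-fold, against 11.6% of all genes. The part of these cell type markers in the results was not tested. In bulk libraries such as these, fewer cells of a type and less RNA per cell cannot be told apart.

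The promoters of H2-K1, H2-D1, B2m and Tap1 are shown because class I genes are known to be controlled through short elements near their start. These stretches differ in which of the searched letters they match. The letters stand for an interferon-stimulated response element (ISRE, searched as GAAA, any 2 bases, GAAA) and a kappaB site (GGG, any 2 bases, TT, any 1 base, CC) bound by NF-kappaB. A Y box (ATTGG, or CCAAT on the other strand), bound by NF-Y, was also searched. A search by fixed letters misses an element spelled otherwise. The sequences are the 250 bases before a RefSeq start site (GRCm38.p6), written from 5′ to 3′ on the strand of the gene, with ISRE, kappaB and Y box matches in capitals. A RefSeq start can lie inside the GENCODE gene, by 364 bases for H2-D1. Among the other windows searched below, it lay inside by 434 bases for Psmb9, 474 for Psmb8 and 3579 for Tapbp.
B2m, chr2:122147437-122147686 (plus strand): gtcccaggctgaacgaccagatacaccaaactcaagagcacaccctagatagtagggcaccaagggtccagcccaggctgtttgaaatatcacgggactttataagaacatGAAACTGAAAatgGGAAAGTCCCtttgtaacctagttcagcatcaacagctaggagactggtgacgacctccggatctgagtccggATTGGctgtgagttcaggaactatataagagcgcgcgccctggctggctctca
H2-K1, chr17:34000334-34000583 (minus strand): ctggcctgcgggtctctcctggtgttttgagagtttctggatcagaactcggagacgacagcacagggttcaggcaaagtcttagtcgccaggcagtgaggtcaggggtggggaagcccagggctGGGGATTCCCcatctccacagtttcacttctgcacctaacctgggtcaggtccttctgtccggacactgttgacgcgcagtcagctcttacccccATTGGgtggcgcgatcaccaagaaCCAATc
H2-D1, chr17:35262844-35263093 (plus strand): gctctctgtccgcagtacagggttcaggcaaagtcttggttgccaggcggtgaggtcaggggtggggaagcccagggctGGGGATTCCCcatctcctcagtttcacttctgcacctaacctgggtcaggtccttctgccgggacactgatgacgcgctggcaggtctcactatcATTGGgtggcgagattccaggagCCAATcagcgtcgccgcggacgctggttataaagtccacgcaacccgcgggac
Tap1, chr17:34187306-34187555 (plus strand): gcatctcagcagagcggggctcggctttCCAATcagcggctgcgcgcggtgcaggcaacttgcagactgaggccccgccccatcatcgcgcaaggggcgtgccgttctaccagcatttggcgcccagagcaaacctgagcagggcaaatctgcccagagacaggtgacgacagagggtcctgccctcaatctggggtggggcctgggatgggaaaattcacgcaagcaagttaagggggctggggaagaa

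H2-K1 and H2-D1 carried the same 10 letters, GGGGATTCCC, 125 and 171 bases before their start sites, and a pair of Y boxes closer to it. From the kappaB match to the end of the first Y box, both stretches were 100 bases long and 89 of these bases were identical. Both held tttcacttct there, which resembles the ISRE letters on the other strand but does not match them. B2m held its ISRE match 139 bases, its kappaB match 126 bases and its Y box 53 bases before the start. The Tap1 stretch held a Y box on the other strand, 222 bases before the start, and no match to the ISRE or kappaB letters. Most of this stretch is also Psmb9 promoter, read on the other strand: the RefSeq windows of 300 bases (250 before and 50 after a start) of Tap1 and Psmb9 shared 275 bases on opposite strands, and the start sites were 226 bases apart.

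Among the windows of the 9 genes with a RefSeq entry, all but Tap2, searched on both strands, the ISRE letters were found in 1 (B2m), against 3.99% of 27025 genes with windows of the same length. The kappaB letters were found in 3 (B2m, H2-K1 and H2-D1), against 5.48% of genes. The Y box letters were found in 7, against 41.1%. A GC box (GGGCGG) was found in 3, against 38.2%. Tap1 and Psmb9 are in both of these counts through the 275 bases that their windows share, so the same bases count for both genes. The GLI site GACCACCCA was found in none of the 9 windows and in 0.289% of genes. A match of letters is a description and not a site of binding.

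Between the labels, the machinery did not move as one. H2-K1, B2m, Tap1, Tap2, H2-M3 and Tapbp were lower in the KO-labelled libraries, by 1.10-fold to 1.49-fold. Psmb8 and Psmb9 were higher there, by 1.57-fold and 1.61-fold, at levels close to 1 CPM, and H2-D1 and Psmb10 did not pass the test. A gene is termed called where edgeR's quasi-likelihood test, adjusted by Benjamini-Hochberg over 14289 genes, gave p under 0.05 and the change was 1.5-fold or more. By this rule 2 of the 10 were called, both higher (Psmb8 and Psmb9), against 17.7% of all genes tested (11.6% higher and 6.1% lower). By the adjusted p alone, 8 of the 10 passed, 6 lower and 2 higher, against 58.7% of all genes (28.8% lower and 29.9% higher). The same 8 had CPM values that did not overlap between the groups, against 64.2% of all genes (31.3% lower and 32.9% higher). The share called was thus near that of all genes, and the share lower by the adjusted p alone, 6 of 10, was above it, which with 10 genes chosen by name is a description only. The common coefficient of variation between wells was 3.74%, and differences of 1.10-fold passed at this spread. The median log2 fold change was -0.22 over the 10 genes and 0.00 over all genes tested.

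**Figure D1:**
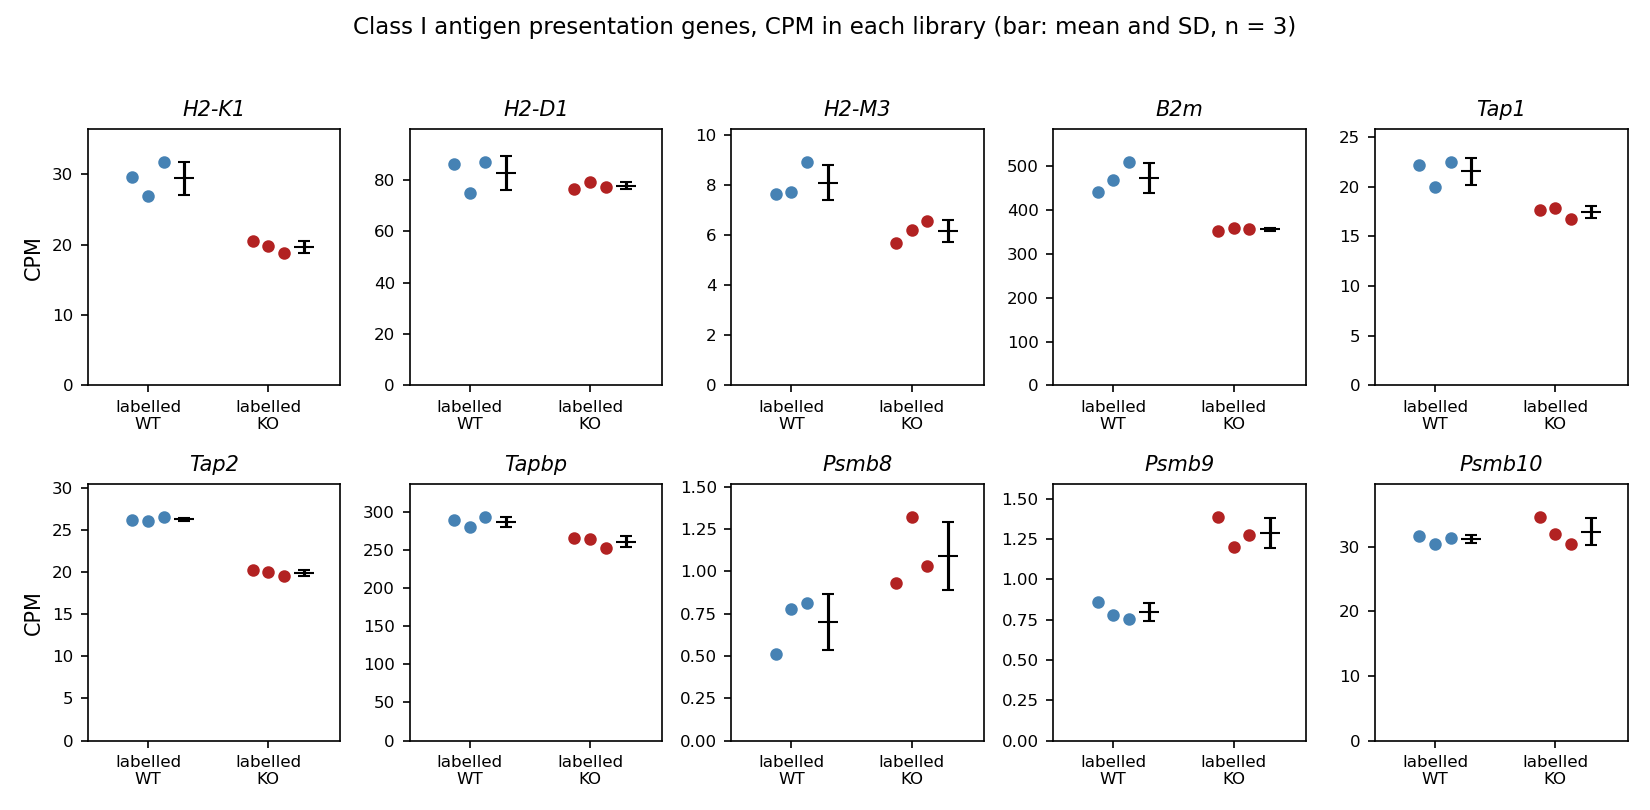
CPM of the 10 class I antigen presentation genes (y axis, from 0, on a scale of its own in each panel) in each WT-labelled library (blue) and each KO-labelled library (red), n = 3 each; the bar beside the points is the mean and SD. The groups are apart in 8 panels, with labelled KO lower in 6 and higher for Psmb8 and Psmb9, and overlap for H2-D1 and Psmb10.

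Of the heavy chains, H2-K1, a classical class I molecule that presents peptides to CD8 T cells, had the largest difference downwards. It had 29.6, 26.9 and 31.7 CPM in the WT-labelled libraries and 20.5, 19.8 and 18.8 CPM in the KO-labelled ones, from 620 to 1011 counts. All 3 KO-labelled libraries were below the lowest WT-labelled one. The mean was 29.4 ± 2.41 CPM (SD, n = 3) in the first group and 19.7 ± 0.877 CPM (n = 3) in the second, a log2 fold change of -0.58 ± 0.06 (SE) with an adjusted p of 5.35e-06 from edgeR. At 1.49-fold it lay just under the fold limit, which it passed without WT-labelled library 2 (-0.64) or without KO-labelled library 1 (-0.61).

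H2-K1 lies at chr17:33996017-34000347 (GRCm38). H2-D1, the other classical heavy chain in the table, lies at chr17:35262730-35267499 and had 86.3, 75.1 and 86.9 CPM in the WT-labelled libraries and 76.6, 79.4 and 77.5 CPM in the KO-labelled ones. The KO-labelled values lay inside the WT-labelled range, and the log2 fold change was -0.09 ± 0.05 with an adjusted p of 0.148 from edgeR. Without WT-labelled library 2, the lowest of its group, it was -0.16 with an adjusted p of 0.00566. H2-K1 and H2-D1 are related in sequence, and 9.63% and 12.8% of their 50-base stretches of exon were also found in another gene, so reads from those stretches could be lost or split in counting. H2-M3, a nonclassical heavy chain that presents formylated peptides of bacteria and mitochondria, lies at chr17:37270220-37274484 and had 7.63, 7.73 and 8.90 CPM in the WT-labelled libraries and 5.68, 6.22 and 6.54 CPM in the KO-labelled ones. All KO-labelled libraries were lower, and the log2 fold change was -0.40 ± 0.09 with an adjusted p of 0.00233 from edgeR.

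B2m, the light chain shared by these heavy chains and by most class I-like molecules, had 442, 468 and 509 CPM in the WT-labelled libraries and 352, 360 and 357 CPM in the KO-labelled ones. The KO-labelled libraries lay within a narrow band below all WT-labelled libraries. The mean was 473 ± 33.5 CPM (n = 3) against 356 ± 3.79 CPM (n = 3), a log2 fold change of -0.41 ± 0.04 with an adjusted p of 3.97e-06 from edgeR. B2m lies on chromosome 2 (GRCm38, chr2:122147686-122153083), apart from the complex, and none of its 50-base stretches was shared with another gene.

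The pump genes Tap1 and Tap2 were both lower in the KO-labelled libraries. Tap1 had 22.2, 19.9 and 22.4 CPM in the WT-labelled libraries and 17.6, 17.9 and 16.8 CPM in the KO-labelled ones. Tap2 had 26.2, 26.1 and 26.5 CPM in the former and 20.2, 19.99 and 19.6 CPM in the latter. Neither gene overlapped between the groups. The log2 fold changes were -0.30 ± 0.06 for Tap1 (adjusted p = 0.000716 from edgeR) and -0.40 ± 0.04 for Tap2 (adjusted p = 7.74e-06 from edgeR). Tapbp, whose product tapasin edits the peptides that class I molecules keep, lies at chr17:33915899-33929292 and had 289, 280 and 293 CPM in the WT-labelled libraries and 266, 264 and 253 CPM in the KO-labelled ones. The groups were apart, but the difference was the smallest of the 6, with a log2 fold change of -0.14 ± 0.03 and an adjusted p of 0.00215 from edgeR. An antisense gene, Gm19412, covers 24.9% of the Tapbp exon bases on the opposite strand, and whether counting used strand is not given in the sources used here.

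Of the immunoproteasome subunits, Psmb9 and Psmb8 were higher in the KO-labelled libraries and Psmb10 did not pass the test. Psmb9 (beta 1i) had 27, 26 and 24 counts in the WT-labelled libraries and 49, 50 and 42 in the KO-labelled ones. The means were 0.797 ± 0.0576 and 1.29 ± 0.0927 CPM (SD, n = 3 each). Every KO-labelled library was above every WT-labelled library, with a log2 fold change of 0.69 ± 0.18 and an adjusted p of 0.00636 from edgeR. Its summed counts, 77 and 141, gave a ratio of 1.61 after scaling to library size, with a 95% interval of 1.21 to 2.15 (Clopper-Pearson, counting error only).

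Psmb8 (beta 5i) had 16, 26 and 26 counts in the WT-labelled libraries and 33, 55 and 34 in the KO-labelled ones, or 0.511, 0.776 and 0.814 CPM against 0.932, 1.32 and 1.03 CPM. The groups were again apart, with WT-labelled library 1 the lowest and KO-labelled library 2 the highest. The log2 fold change was 0.65 ± 0.24 with an adjusted p of 0.0314 from edgeR, and the summed counts, 68 and 122, gave a ratio of 1.58 (interval 1.16 to 2.15). This call rested on single libraries: the adjusted p from edgeR was 0.12 without WT-labelled library 1, 0.0523 without WT-labelled library 2 and 0.154 without KO-labelled library 2, and it was 0.101 with DESeq2. Psmb10 (beta 2i), on chromosome 8 (GRCm38, chr8:105935735-105938444), had 31.7, 30.5 and 31.4 CPM in the WT-labelled libraries and 34.6, 31.96 and 30.5 CPM in the KO-labelled ones. These ranges overlapped, and the log2 fold change was 0.05 ± 0.05 with an adjusted p of 0.384 from edgeR.

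Psmb9, Tap1, Psmb8 and Tap2 lie next to each other within 34.3 kb (GRCm38, chr17:34181987-34216321), and no other tested gene lies inside this span. The neighbours differed in direction: the proteasome genes were higher and the pump genes lower in the KO-labelled libraries. Tap1 and Psmb9 start head to head, and 212 of their exon bases overlap on opposite strands, which is 3.9% of Tap1 and 5.8% of Psmb9. Tap1 had 553 or more counts in every library and Psmb9 at most 50. If strand was not used, reads of that overlap could add to the Psmb9 count or be left out of both genes. The counting settings are not given, and this was not tested. The antisense gene Gm20496 overlaps 14.7% of the Psmb8 exon bases and 4.4% of those of Tap2. Another gene on the opposite strand, Gm15821, overlaps 14.1% of the Tap2 exon bases.

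Per kilobase of exon, the order of the 10 genes was the same in both groups. B2m led with 550 ± 39.0 CPM per kb in the WT-labelled libraries and 414 ± 4.41 in the KO-labelled ones (SD, n = 3). Tapbp followed with 79.3 and 72.0 CPM per kb, H2-D1 with 32.1 and 30.2, and Psmb10 with 18.3 and 19.0. H2-K1 had 10.0 and 6.70 CPM per kb, Tap2 6.94 and 5.27, H2-M3 5.62 and 4.27, and Tap1 3.93 and 3.18. Psmb9 had 0.218 and 0.351 CPM per kb and Psmb8 0.207 and 0.324, and these were the only neighbours in the order whose ranges overlapped within a group. By reads mapped to GRCm38.p6, light chain mRNA was thus far more abundant per length than any heavy chain mRNA. The strain label is Mixed, and loss of heavy chain reads that differ from this reference was not tested. Psmb9 and Psmb8 lay at the percentiles 9.76 and 9.15 of all genes tested. The exon length used is the union over all annotated transcripts, which lowers the level of genes with long or many transcripts.

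Ratios of counts within a library do not depend on how libraries were scaled, and 7 pairs of partner genes were compared in this way. With 3 against 3 libraries an exact permutation test over the 20 splits cannot go below a two-sided p of 0.1, so no pair could reach 0.05. Psmb8 counts were 0.690%, 1.05% and 1.11% of those of Psmb5, the constitutive beta 5 subunit it replaces, in the WT-labelled libraries. They were 1.33%, 1.85% and 1.55% in the KO-labelled ones. Psmb9 counts were 0.862%, 0.796% and 0.797% of those of its constitutive partner Psmb6 in the former and 1.42%, 1.28% and 1.44% in the latter. Both ratios were higher in every KO-labelled library, by 0.75 on the log2 scale in each (exact permutation p = 0.1, adjusted p = 0.117 over 7 pairs). Psmb10 over its partner Psmb7 was higher by 0.20 without overlap (exact permutation p = 0.1). The constitutive subunits themselves had 69.3 to 101 CPM as group means and log2 fold changes of -0.09 (Psmb5), -0.06 (Psmb6) and -0.15 (Psmb7).

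H2-K1 counts were 34.3%, 35.8% and 36.4% of H2-D1 counts in the WT-labelled libraries and 26.8%, 24.9% and 24.2% in the KO-labelled ones. This balance of the classical heavy chains was lower in every KO-labelled library, by -0.49 on the log2 scale (exact permutation p = 0.1, adjusted p = 0.117 over 7 pairs). H2-D1 over B2m was higher by 0.32 without overlap, and Tap1 over Tap2 by 0.09 without overlap (exact permutation p = 0.1 for each). H2-K1 over B2m differed by -0.17 and its ranges overlapped (exact permutation p = 0.2). In all, 6 of the 7 ratios did not overlap, 5 higher and 1 lower in the KO-labelled libraries. The share over gene pairs in general was not computed, and of single genes 64.2% did not overlap.

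**Figure D2:**
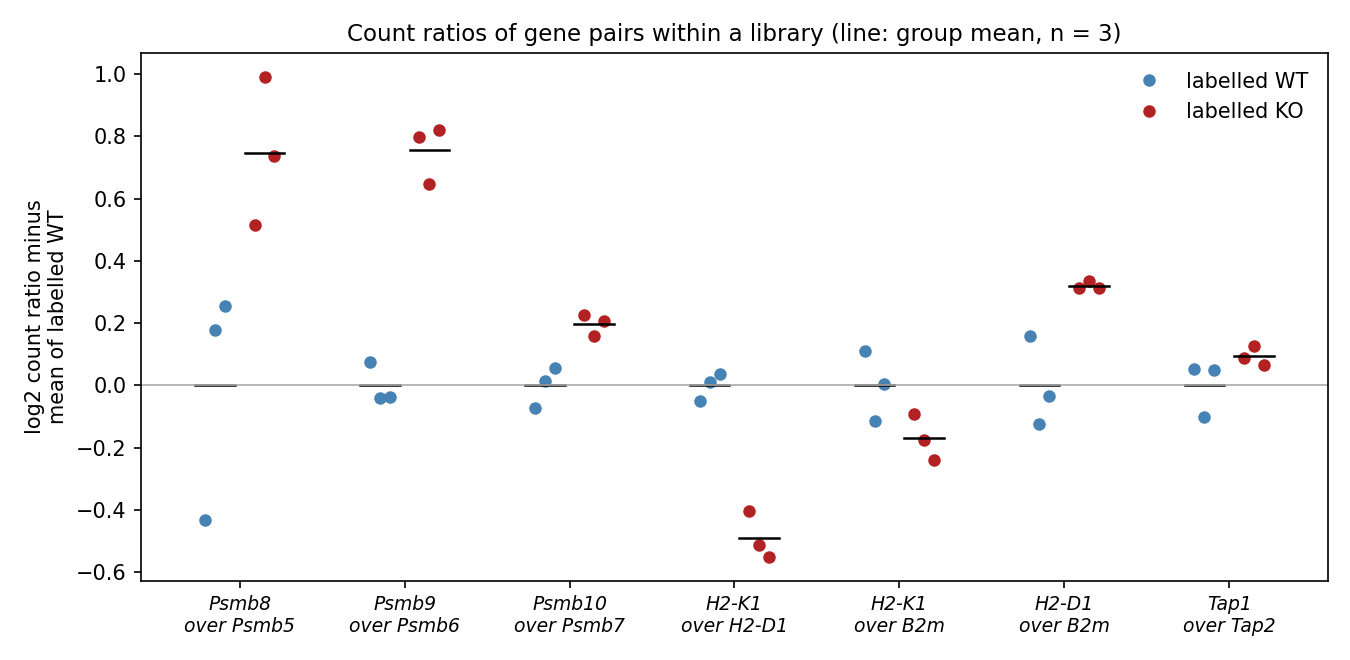
Log2 ratio of the counts of gene pairs within a library (y axis), minus the mean of the WT-labelled libraries, for 7 pairs (x axis); points are libraries (labelled WT blue, labelled KO red, n = 3 each) and lines are group means. Psmb8 over Psmb5 and Psmb9 over Psmb6 are each 0.75 higher in labelled KO, H2-K1 over H2-D1 is 0.49 lower, and H2-K1 over B2m is the 1 pair that overlaps.

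The wider pathway was taken from 8 lists with 72 genes tested, of which 8 were called, a share below the 17.7% of all genes. By the adjusted p alone, 28.8% of all genes tested were lower and 29.9% higher. The counts of each list below stand beside these shares and were not tested against them. No gene was called in the list of endoplasmic reticulum chaperones and trimming enzymes that serve class I loading (11 tested, median log2 fold change 0.03). There, 2 passed the adjusted p alone as lower and 2 as higher, and Calr and Pdia3, the chaperone and oxidoreductase of the loading complex, had 0.03 and 0.03. None of the 14 core proteasome genes was called either (median -0.08), with 6 lower and 1 higher by the adjusted p alone. Of 9 proteasome activator and assembly genes none was called (median -0.12), and Psme1 and Psme2, the interferon-inducible activator, had -0.12 and -0.15.

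Of 22 nonclassical class I and class I-like genes, 11 were in the table, all tested, with a median log2 fold change of -0.17. Of these 11, 4 were called, 3 lower and 1 higher, against 17.7% of all genes tested (6.1% lower and 11.6% higher). By the adjusted p alone, 5 were lower and 3 higher. Mr1, which presents vitamin B metabolites of microbes to MAIT cells and pairs with B2m, had 64.8, 65.5 and 67.3 CPM in the WT-labelled libraries and 26.6, 27.5 and 27.4 CPM in the KO-labelled ones. The groups were far apart relative to their spread, with a log2 fold change of -1.28 ± 0.04 and an adjusted p of 2.39e-11 from edgeR. H2-T22, a ligand of gamma delta T cells, fell from 48.4 ± 2.39 to 31.1 ± 0.406 CPM (n = 3 each), a log2 fold change of -0.64 ± 0.04 with an adjusted p of 8.01e-08 from edgeR. It shares 53.5% of its 50-base exon stretches with other genes, H2-T10 among them (31.25% of those of H2-T22), and with upper-quartile scaling it was -0.58, under the fold limit. H2-T10 itself had -0.46 (adjusted p = 0.000598 from edgeR) and was not called.

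H2-T23, the mouse Qa-1, which shows peptides of class I leader sequences to the NKG2 receptors of NK cells, was the called gene of this list that was higher. Procr and Hfe, with log2 fold changes of 0.38 and 0.37, were also higher by the adjusted p alone. It had 6.99, 4.84 and 6.11 CPM in the WT-labelled libraries and 13.0, 11.3 and 11.4 CPM in the KO-labelled ones. It rose in all 3, by 1.99-fold, with a log2 fold change of 1.00 ± 0.11 and an adjusted p of 7.07e-06 from edgeR. H2-T24 was near the limit of detection, with 18, 18 and 23 counts in the WT-labelled libraries and 3, 5 and 3 in the KO-labelled ones, where a floor of 3 counts is 0.0720 to 0.0957 CPM. Its summed counts, 59 and 11, gave a ratio of 0.164 after scaling to library size (95% Clopper-Pearson interval 0.0776 to 0.315, counting error only), and edgeR's log2 fold change was -2.57 ± 0.35 with an adjusted p of 4.13e-05. H2-T22, H2-T23 and H2-T24 lie within the same stretch of chromosome 17 (GRCm38), from 36005695 to 36042747, and moved in different directions.

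**Figure D3:**
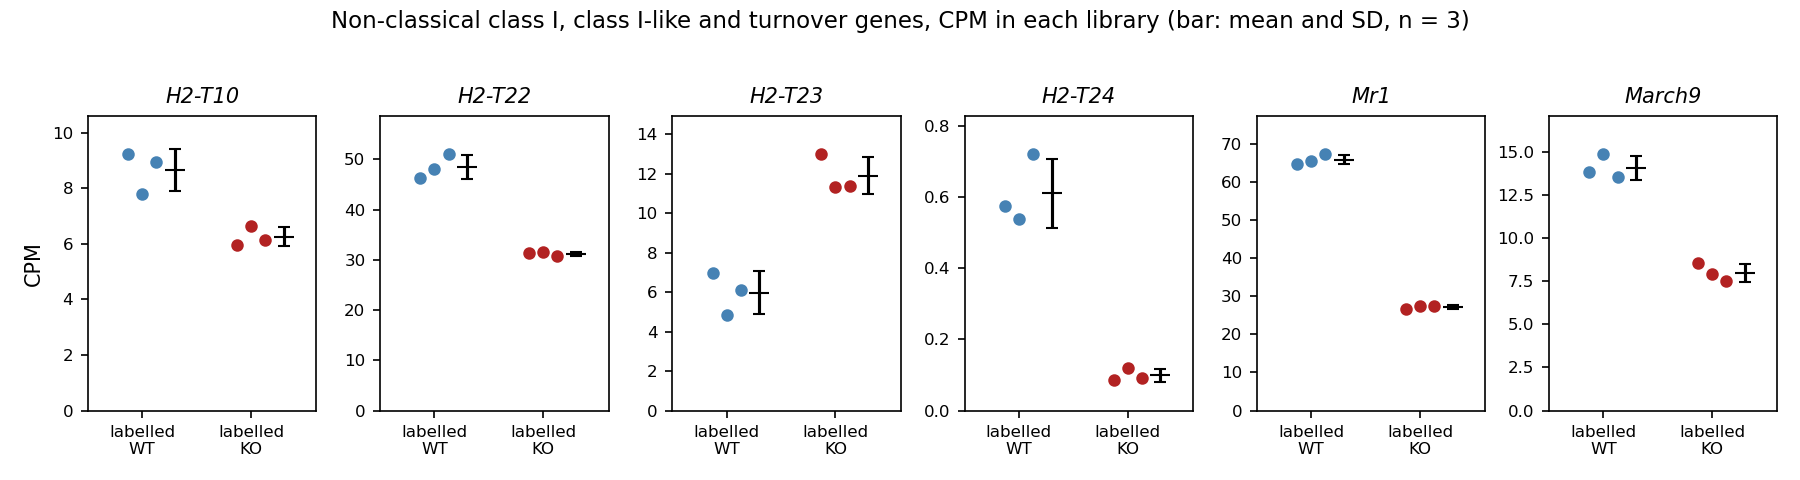
CPM of H2-T10, H2-T22, H2-T23, H2-T24, Mr1 and March9 (y axis, from 0, on a scale of its own in each panel) in each WT-labelled library (blue) and each KO-labelled library (red), n = 3 each; the bar beside the points is the mean and SD. H2-T23 is higher in labelled KO, by 1.99-fold, and the other 5 are lower, with no overlap in any panel.

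Of the genes that control class I surface display after synthesis, 3 were in the table of 9 symbols listed (older and newer names of the same genes included). March9, a ubiquitin ligase that removes class I molecules from the cell surface, had 13.8, 14.9 and 13.6 CPM in the WT-labelled libraries and 8.56, 7.92 and 7.51 CPM in the KO-labelled ones. All KO-labelled libraries were lower, with a log2 fold change of -0.82 ± 0.07 and an adjusted p of 7.97e-07 from edgeR.

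No gene was called among 13 transcriptional regulators of class I genes (median log2 fold change -0.00), with 5 lower and 3 higher by the adjusted p alone. Nlrc5, the class I transactivator, was low, with 0.614 ± 0.176 CPM (n = 3) in the WT-labelled libraries and 0.675 ± 0.148 (n = 3) in the KO-labelled ones, and a log2 fold change of 0.12 ± 0.28. Irf1, which binds ISRE sites, had 59.3 CPM in both groups and a log2 fold change of -0.00 ± 0.04. The NF-Y subunit Nfyb had 0.37 ± 0.05 and Rfx5, of the RFX complex that binds class I promoters, -0.21 ± 0.04, with adjusted p values of 1.86e-05 and 0.0011 from edgeR.

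Of 13 MHC class II pathway genes, 4 were in the table. The chains H2-Aa, H2-Ab1 and H2-Eb1 and the transactivator Ciita were not. Cd74, the invariant chain of class II, had 2.87, 3.25 and 2.66 CPM in the WT-labelled libraries and 1.33, 0.960 and 0.909 CPM in the KO-labelled ones, a log2 fold change of -1.46 ± 0.17 with an adjusted p of 1.03e-05 from edgeR. H2-DMb1, a chain of the class II peptide exchanger, rose from 3.93 ± 0.735 to 7.12 ± 0.267 CPM (n = 3 each), a log2 fold change of 0.85 ± 0.12 with an adjusted p of 4.07e-05 from edgeR. By the adjusted p alone the 4 genes were 3 higher and 1 lower. Ifi30, the lysosomal thiol reductase of antigen processing, was just under the fold limit with 0.57 ± 0.07, and the higher calls of the list numbered 2 in place of 1 with upper-quartile or total-count scaling and without WT-labelled library 1, WT-labelled library 2 or KO-labelled library 3.

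Of 12 ligands through which NK and T cells sense target cells, 7 were in the table and 1 was called, or 2 without WT-labelled library 1 and with upper-quartile scaling. By the adjusted p alone, 3 were higher and 1 lower. Raet1d, a stress-induced ligand of the activating receptor NKG2D, had 2.62, 2.15 and 3.04 CPM in the WT-labelled libraries and 5.39, 5.42 and 4.88 CPM in the KO-labelled ones. Every KO-labelled library was higher, with a log2 fold change of 1.01 ± 0.13 and an adjusted p of 1.85e-05 from edgeR. Raet1 genes are near copies of each other, so the split of reads between them is uncertain, and Raet1a and Raet1b were not in the table. The adhesion ligands Nectin2 and Pvr had log2 fold changes of 0.55 ± 0.05 and 0.49 ± 0.08, under the fold limit, and Cd274 (PD-L1) had 0.14 ± 0.20. H60b was the 1 gene lower by the adjusted p, with -0.29 ± 0.08 (adjusted p = 0.0088 from edgeR) and no overlap. Raet1e and Ulbp1 had 0.11 ± 0.06 and -0.06 ± 0.05 and did not pass.

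**Figure D4:**
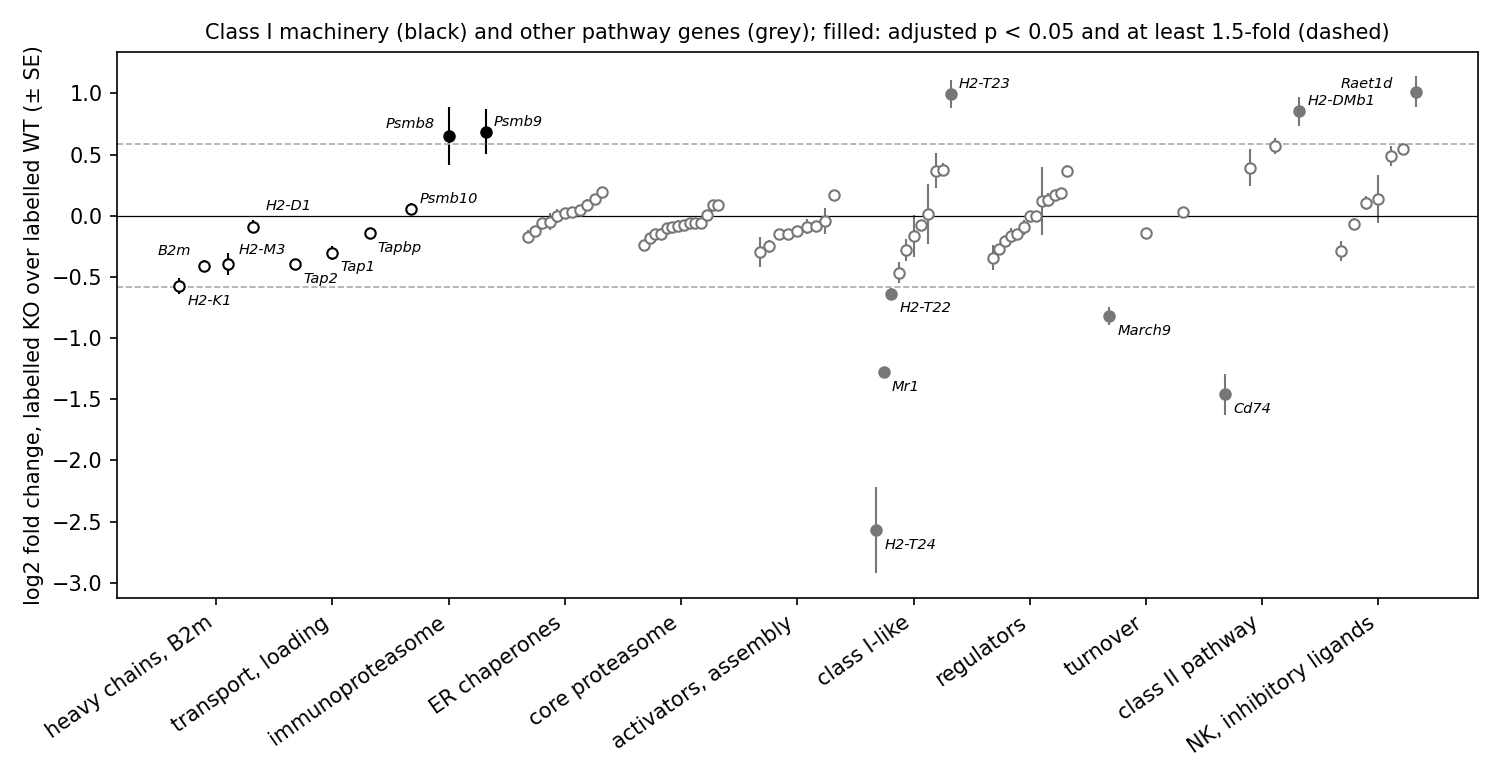
Log2 fold change of labelled KO over labelled WT (y axis, bars are the SE from edgeR, n = 3 libraries each) for the 10 class I genes (black) and 72 other pathway genes (grey) by list (x axis); filled points are called and dashed lines mark 1.5-fold. Of the 10, Psmb8 and Psmb9 are filled and H2-K1 sits at the lower line, while 8 grey points are filled, 3 of them above 0.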

How the data were processed

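RNA was measured in 6 libraries of cultured fibroblasts, 3 per label. Per the labels, reads were processed with STAR 2.7.2b, featureCounts and limma on GRCm38.p6, as the submitters' processing notes list them. The authors deposited raw counts per gene, without low-count genes, and log2 CPM values made with voom. Positions are from GENCODE M21 (GRCm38) and promoters from RefSeq (GRCm38.p6).

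The test was edgeR's quasi-likelihood F test (edgeR 4.0.16, R 4.3.3, TMM and filterByExpr) over 14289 genes, with Benjamini-Hochberg adjustment over all of them. CPM are per TMM-scaled library size. On simulated counts for this comparison, with 200 of 14289 genes changed, 93% were recovered with 1 false call. Recovery at the fold changes and counts of the class I genes was not tested separately. Same-group libraries differed by more than sampling noise (chi-square per degree of freedom 2.50 to 7.74), so all were kept. Intervals and floors cover counting error only.

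The genes, lists and pairs were chosen with earlier results of these data known. Named genes are the 10, Gli2 and Gli3, pair partners, and up to 4 called genes per list and direction; other genes named were chosen after their values were seen. Alternatives were scaling by RLE, the upper quartile or total counts, other filters and fold limits, DESeq2 1.42.0, limma 3.58.1 (voom, and on the deposited log2 CPM), pair ratios with 0.5 added and leaving out each library.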

Additional observations from a re-analysis of the deposited data

How the results depend on the processing

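The number of the 10 class I genes called, 2, was 1 with DESeq2, 1 with limma on the deposited log2 CPM, 8 with no fold limit and 0 with a limit of 2-fold, and 1 to 3 when each library was left out in turn. Of the 72 pathway genes tested, 8 were called, against 42 with no fold limit, 4 with a limit of 2-fold and 8 to 10 when each library was left out. Over all genes, 2531 became 8391 and 1456 with no and a 2-fold limit. Psmb10 changed sign without KO-labelled replicate 1 (log2 fold change -0.000483), with a range over left-out libraries of -0.000483 to 0.0929. Psmb8 lost its call with DESeq2 (adjusted p = 0.101), limma on the deposited log2 CPM (adjusted p = 0.0597) and without WT-labelled replicate 1 or 2 or KO-labelled replicate 2, and H2-T22 with upper-quartile scaling. Of 140 class I gene values under alternatives, 132 kept their direction and stayed called or not called, 5 lost a call, 2 gained one and 1 reversed. Adjusted p stayed under 0.05 in all 15 settings for H2-K1, H2-M3, B2m, Tap1, Tap2, Tapbp and Psmb9, in 10 for Psmb8, 1 for H2-D1 (without WT-labelled replicate 2) and 0 for Psmb10. The median over the 10 genes ran from -0.26 to -0.16. The count of pairs without overlap was 6, and 7 without WT-labelled replicate 2 or KO-labelled replicate 1. No paired analysis was possible because the labels give the groups no shared replicate numbers. With 16 to 55 counts per library, counting error limits Psmb8 and Psmb9.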

Other observations

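WT-labelled library 3 was the highest of its group for 8 of the 10 class I genes, against 33.2% of all genes tested that were highest in that library. The genes whose centred log2 CPM profile over the 6 libraries lay nearest to the mean profile of the 10 class I genes, among 10519 genes (100 counts or more per library), were Tatdn3, Smap2, Ifi211, Zfp335 and Gxylt1. Their root mean square distance was 0.0129 to 0.0194 on the log2 scale, and the mean profile itself was nearly flat, from -0.07 to 0.12, since it averages genes that differ in direction.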
